A study of Mus musculus with 9 samples.

Results

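The 39 Hox genes of the Hoxa, Hoxb, Hoxc and Hoxd clusters were examined in ATAC-Seq libraries of fibroblasts on the way to induced pluripotent stem cells (iPSCs). They were taken by symbol (Hox, a cluster letter and a paralog number) from the 22228 protein-coding genes that GENCODE vM1 places on chromosomes 1 to 19, X and Y of mm9. The Hoxa cluster holds 11 of them, Hoxb 10, Hoxc 9 and Hoxd 9. In ATAC-Seq the Tn5 transposase inserts adapters into open chromatin, and stretches rich in sequenced tags are called accessible. Mouse embryonic fibroblasts (MEFs) with an Oct4-GFP reporter were given pMXs retroviruses carrying Oct4, Sox2, Klf4 and c-Myc (OSKM). Per the methods of the study, reprogramming took place without feeders, mainly in mESC, KOSR or FF medium, each with LIF. FF medium also held bFGF, ascorbic acid and CHIR99021, and is the one named for the knockdown experiments. The 7 time-course libraries were D0 (uninfected MEFs), D3 (unsorted), D6T- and D9T- (days 6 and 9, Thy-1-), D12S+ and D16S+ (days 12 and 16, SSEA-1+) and iPSCs (fully reprogrammed). The other 2 came from day 6 cells that received siRNA against the H3.3 genes (D6_siH3.3) or non-targeting siRNA (D6_siNT). Their labels give Thy-1- sorting, whereas the library list of the study gives none. Per the study, this knockdown was transient and made at the start of reprogramming. The level of H3.3 on day 6 is not given by these libraries. Each condition had 1 library, so no difference between conditions has a replicate check and no test was made. The retroviral factors are driven by the viral promoter and not by the endogenous genes, and the sorted populations may still hold cells of mixed fate.

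Hox genes encode homeodomain transcription factors that give cells their position along the body axis. Within a cluster the genes lie in the order of their paralog numbers, and low numbers act in anterior and high numbers in posterior parts of the embryo. Fibroblasts keep a Hox pattern that reflects where in the body they came from, while in pluripotent cells the clusters are held silent by Polycomb proteins and carry both active and repressive histone marks.

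Libraries held from 13213117 tags (D9T-) to 31714845 tags (D0). Peaks were called against a genome-wide background, so each library had its own lowest callable pileup (how many extended tags lie on a summit). It lay between 7 tags at D9T- and 11 tags at D0, which is 0.530 and 0.347 CPM (pileup per 1000000 total tags), and a weaker opening was not detectable. The labels were checked by marker promoters. Of 7 pluripotent markers, 1 had a promoter region at D0 and 0 at D9T-, against 7 at D12S+, D16S+ and in iPSCs. Of 7 fibroblast markers, 6 had one at D0, 7 at D12S+ and D16S+ and 5 in iPSCs, so these did not set D0 apart from the SSEA-1+ libraries. All 3 blood markers lacked one in the 9 libraries, the 3 endothelial markers had one at D0, D3 and D6T-, and 2 of 3 neural markers had one at D0 and 3 in iPSCs. D9T- stood apart with the fewest tags and regions, and the values that rest on it are given with and without it.

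Accessible regions covered more bases of the Hox clusters than at D0 in each later time-course library other than D9T-, and most at D3. The day 6 siRNA libraries did not share this rise in covered bases. The clusters were taken from 3 kb upstream of their outermost TSS to the last TTS and span 504 kb. Accessible regions covered 10.3 kb of them at D0, rising to 44.6 kb (D3) and 43.2 kb (D6T-), and 2.24 kb at D9T-. They covered 15.1 kb at D12S+, 22.5 kb at D16S+ and 26.8 kb in iPSCs. In the day 6 siRNA libraries they covered 9.92 kb (D6_siNT) and 7.49 kb (D6_siH3.3), below D0. Between D0 and D3, with similar total tags (31714845 and 30233396), the covered bases of the clusters rose 4.32-fold and those of the genome 1.55-fold. The signal was not alike in these libraries, since the 12307 regions of the genome called in all 9 libraries had a median of 0.883 CPM at D0 and 1.98 CPM at D3, and its part in the rise was not tested. From D0 to iPSCs they rose 2.59-fold in the clusters, whereas the coverage of the genome went from 1.15% to 1.04%. As a fold over the coverage of the genome in the same library, the clusters stood at 1.78 (D0), 4.97 (D3), 3.48 (D6T-), 3.07 (D12S+), 4.71 (D16S+) and 5.12 (iPSCs), and at 0.796 in the sparse D9T- library. By this measure D6_siNT stood at 2.59 and D6_siH3.3 at 1.97. The 100 kb on either side of the clusters stood at 0.689-fold at D0 and 1.5-fold in iPSCs.

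The 4 clusters differed in level and shared the early rise. Hoxb was the least covered of the 4 in all 9 libraries, and Hoxa was the most covered in each library other than D9T- and D6_siNT, where Hoxc was. Hoxa went from 3.64-fold over the genome at D0 to 7.74-fold at D3 and 7.10-fold in iPSCs. Hoxb went from 0.650-fold at D0 to 2.67-fold at D3 and 3.60-fold in iPSCs. Hoxc went from 2.15-fold to 5.73-fold and 5.13-fold, and Hoxd from 1.33-fold to 5.16-fold and 5.66-fold. The rise from D0 to D3 was present in each cluster when all libraries were held to the same number of strongest regions, to the stronger 50% of their regions or to the same lowest level. The rise from D0 to iPSCs held in Hoxb, Hoxc and Hoxd under these settings. In Hoxa it turned into a fall with the same number of strongest regions (4.28-fold at D0, 3.45-fold in iPSCs) and with the stronger 50% (4.49-fold and 3.84-fold). The Hoxb values under the 3 settings were 0.283, 0.263 and 0.241-fold at D0 and 2.99, 3.33 and 2.89-fold in iPSCs.

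**Figure D1:**
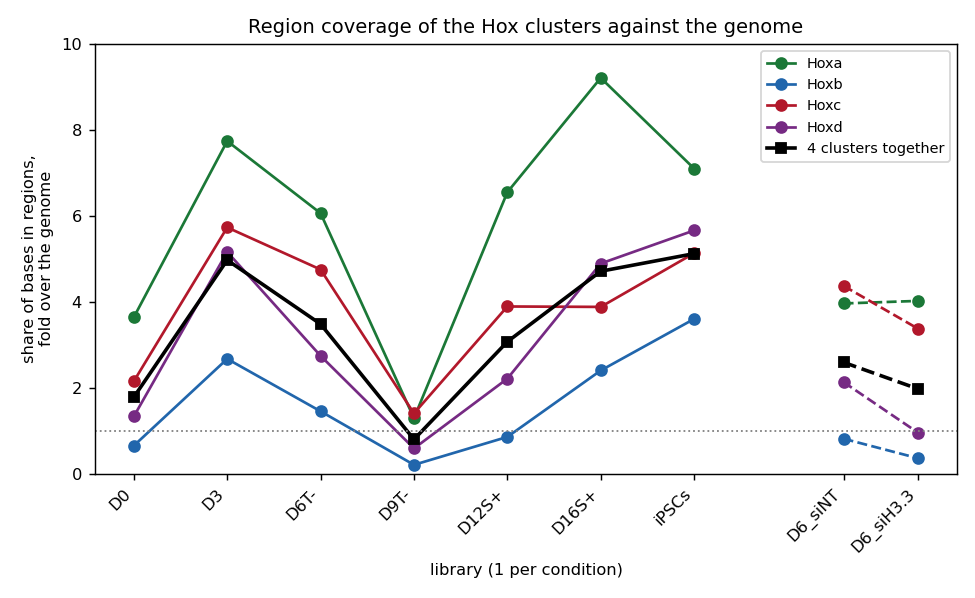
Share of bases in accessible regions for each Hox cluster (coloured lines) and the 4 clusters together (black), as a fold over the share of the genome in the same library (dotted line at 1), against library. Each point is 1 library, the siRNA pair stands apart on the right, and the clusters together go from 1.78 at D0 to 4.97 (D3) and 5.12 (iPSCs) with a low of 0.796 at D9T-.

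By position in the clusters, genes were grouped as anterior (paralogs 1 to 4, 12 genes), central (5 to 8, 11 genes) and posterior (9 to 13, 16 genes). At D0, accessible regions covered 2.12% of the anterior spans, 3.73% of the central and 3.43% of the posterior ones. In iPSCs they covered 6.38%, 5.61% and 8.02%. The order thus changed, as central genes were the most covered at D0 and the least covered in iPSCs. The sections are not separate, since the span of Hoxa3 contains Hoxa5 and Hoxa6, and regions there count as anterior and as central. Anterior Hoxb genes went from 0.735% of their span at D0 to 6.92% at D3, then back to 1.90% (D6T-), 0.441% (D9T-) and 0.586% (D12S+), and to 4.70% at D16S+ and 7.35% in iPSCs, with 0 in either siRNA library. Anterior Hoxd genes went from 0.611% at D0 to 7.84% at D3 and 5.72% in iPSCs. Central Hoxc genes (Hoxc5, Hoxc6 and Hoxc8) were near their starting value in iPSCs, with 4.91% at D0, 15.6% at D3 and 4.56% in iPSCs, and 7.70% and 7.81% in D6_siH3.3 and D6_siNT. Paralog group 2 (Hoxa2 and Hoxb2), which patterns the hindbrain, had no region at D0 and 9.40% of its span covered in iPSCs, by 4 regions. Between these it had 5.48% covered at D3, 3.12% at D6T- and 2.61% at D16S+, and no region at D9T- or D12S+.

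**Figure D2:**
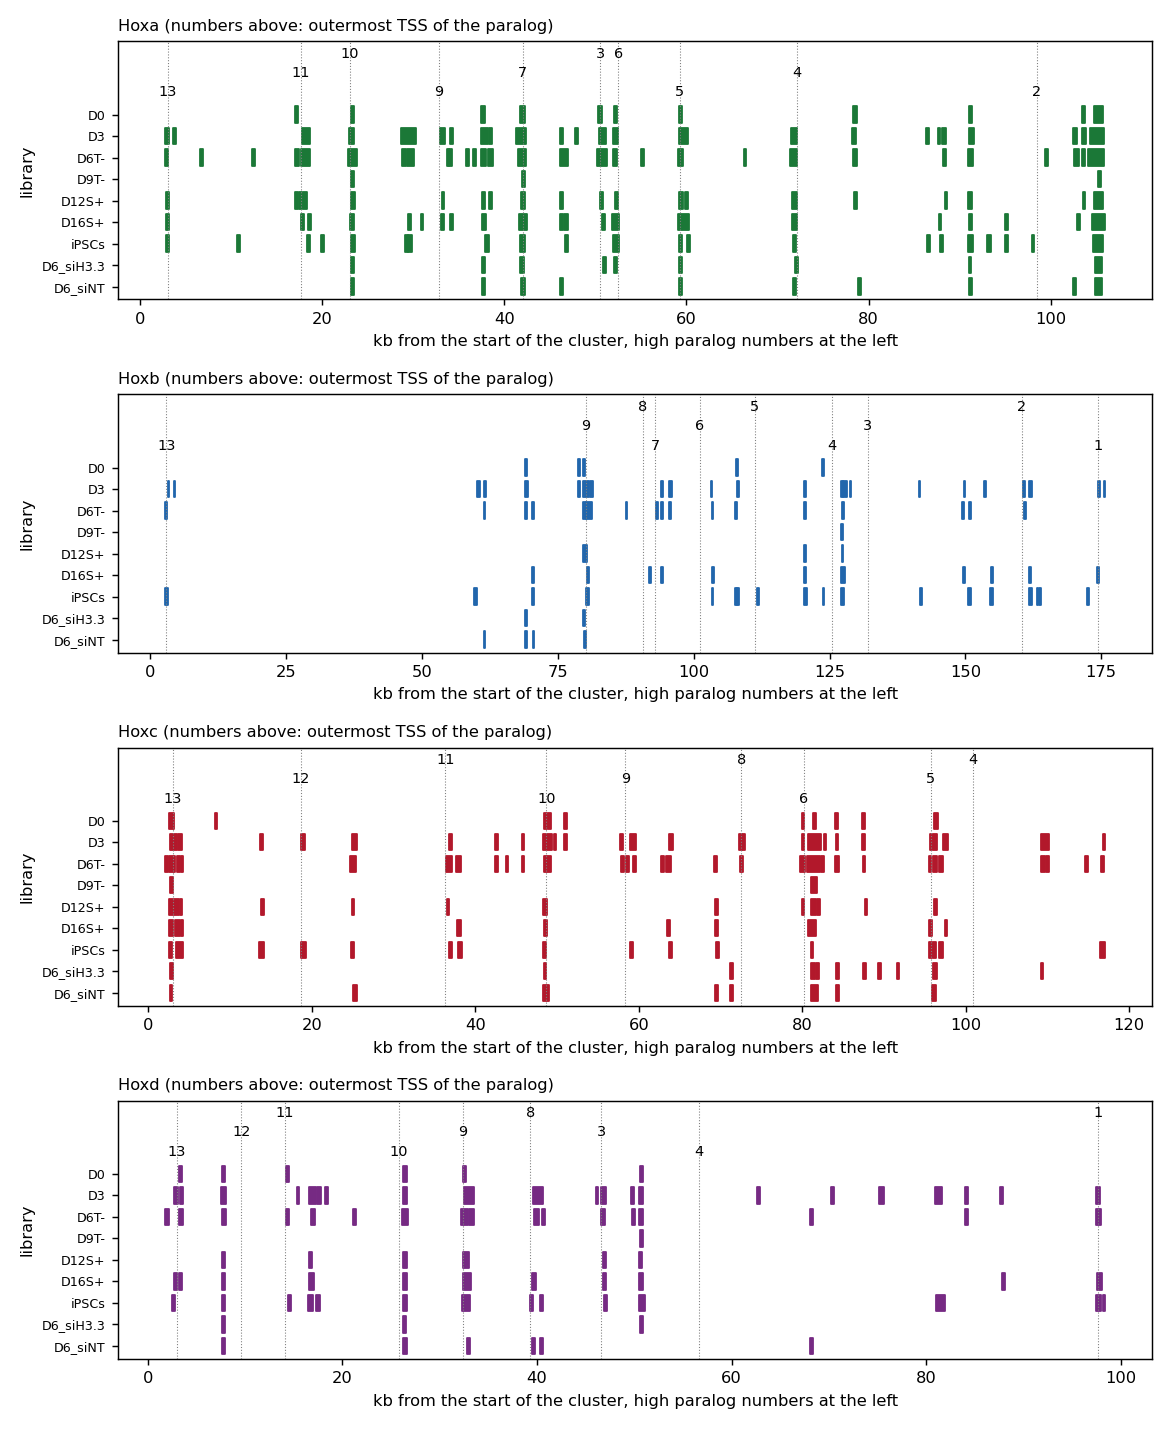
Accessible regions of each library (rows) along each Hox cluster, in kb from the start of the cluster with high paralog numbers at the left, where dotted lines mark the outermost TSS of the genes numbered. Some regions recur at the same places in D3, D6T-, D16S+ and iPSCs, and the D9T- row holds 7 regions in all. Of the Hox regions of D3, 50.6% are found in iPSCs, as are 50.6% of those of D6T-. The anterior Hoxb part is nearly empty at D0, D9T- and D12S+ and empty in the siRNA libraries.

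Few Hox promoters were open in fibroblasts. A promoter was the 3 kb upstream of any annotated TSS, and a gene counted when an accessible region touched it. At D0, 14 of the 39 genes had a promoter region (35.9%), against 58.1% of all protein-coding genes. The count was 26 at D3 (67.9% of all genes), 30 at D6T- (68.4% of all genes) and only 4 in the sparse D9T- library (50.6% of all genes). At D12S+ it was 16 (63.1% of all genes), at D16S+ 23 (63.2% of all genes) and in iPSCs 27, or 69.2%, against 64.1% of all genes. With siRNA, 13 genes had one in D6_siH3.3 (54.4% of all genes) and 14 in D6_siNT (55.0% of all genes). The Hox genes thus lay below the share of all genes at D0, D9T-, D12S+ and with siRNA, and within 10 percentage points of it at D3, D6T-, D16S+ and in iPSCs. From D0 to iPSCs 14 Hox genes gained a promoter region, while 10.6% of all genes did, and 1 (Hoxa11, of the limb and kidney) lost it, while 4.64% of all genes did. These shares are not alike in their start. With 35.9% open at D0 against 58.1%, a larger share of the Hox genes could gain a promoter region and a smaller share could lose it. Those that gained one were Hoxa2, Hoxa4, Hoxa10, Hoxa13, Hoxb1, Hoxb3, Hoxb13, Hoxc5, Hoxc8, Hoxc9, Hoxd1, Hoxd8, Hoxd9 and Hoxd13, from all sections. Among them, Hoxa10, Hoxc5, Hoxd9 and Hoxd13 already had a region within the gene at D0. Hoxa11, in turn, still had 2 regions within the gene in iPSCs. The higher of these had 0.451 CPM, against 0.441 CPM for its promoter region at D0. At Hoxd9 the regions of both libraries overlapped (0.504 CPM at D0, 0.527 CPM in iPSCs). The region started past the TSS at D0 and before it in iPSCs. With a shorter promoter that takes in the first 100 bp of the gene, 11 genes gained one. When each library was held to its 36708 strongest regions, 7 gained and 3 lost one, and the counts were 6 at D0 and 10 in iPSCs.

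**Figure D3:**
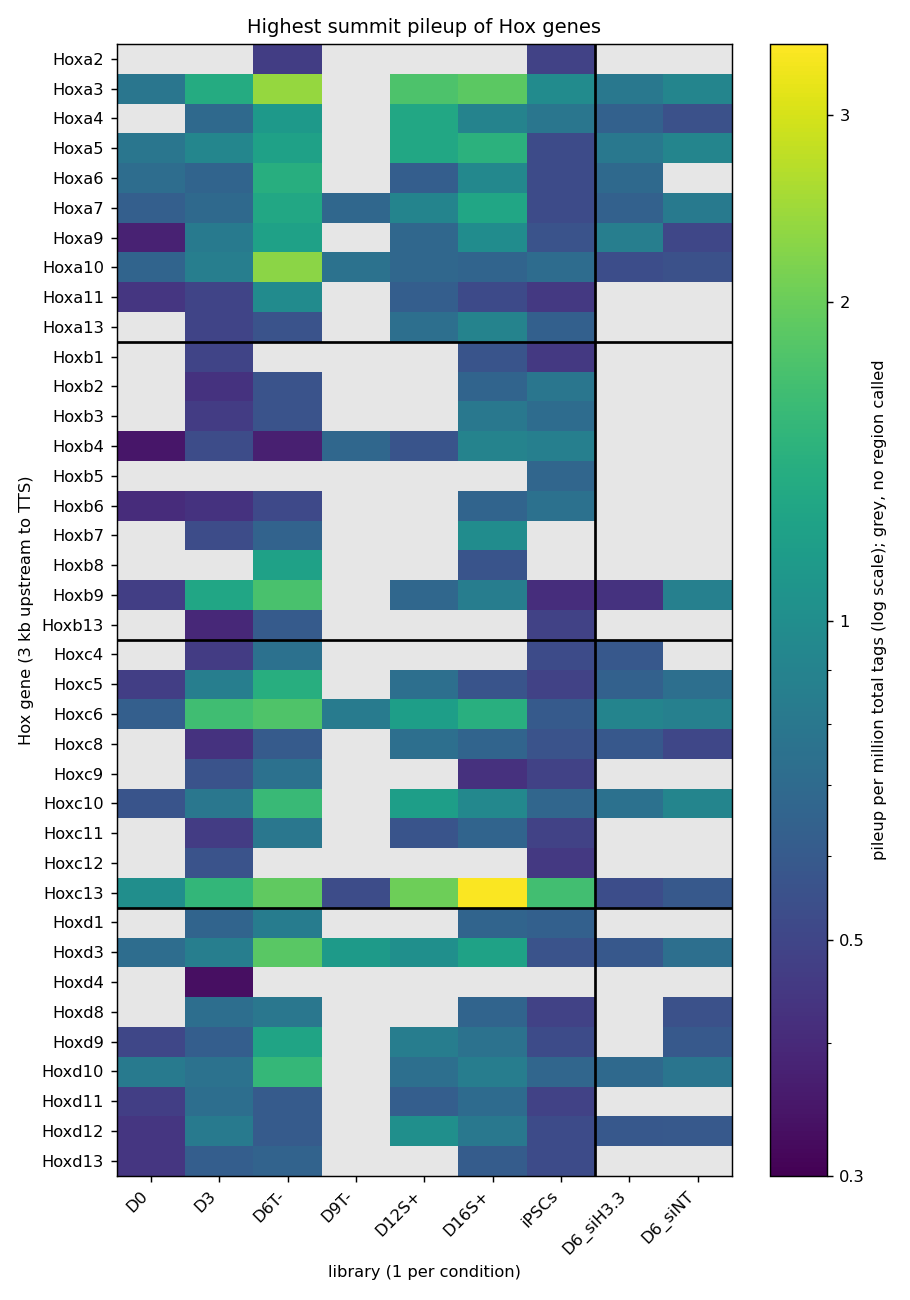
Highest summit pileup in CPM (colour, log scale) from 3 kb upstream to the TTS of the Hox genes shown (rows, by cluster) in each library (columns), where grey stands for no region called. At D0, 18 genes are grey, against 3 in iPSCs and 32 at D9T-, and the brightest cell is Hoxc13 at D16S+ (3.45).

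The promoters of 4 Hox genes, those of Hoxa7, Hoxc6 and Hoxc13 among them, were open in all 9 libraries, as were 44.0% of all promoters of protein-coding genes. Without D9T- the list grew to 9 genes, against 46.7% of all genes, with Hoxa3, Hoxa5, Hoxa9, Hoxc10 and Hoxd12 added.

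Hoxc13, the most posterior gene of its cluster and a regulator of hair and nail, had the highest level of the Hoxc cluster at D0 and in iPSCs. Its level was 1.01 CPM (D0), 1.52 (D3), 1.92 (D6T-), then 0.530 (D9T-), 2.04 (D12S+), 3.45 (D16S+) and 1.66 (iPSCs). The siRNA libraries had 0.536 CPM (D6_siH3.3) and 0.597 CPM (D6_siNT). The value at D16S+ came from 73 tags (95% exact Poisson interval 57.2 to 91.8 tags, counting error only), those at D0 and in iPSCs from 32 (21.9 to 45.2) and 44 tags (32.0 to 59.1), and the first was the highest of all Hox genes in the 9 libraries. The 300 bases about the summit of its promoter region are shown (mm9, + strand), since that region was found in all 9 libraries. The window had no match to any of the 6 motifs searched, which would stand in capitals.
Hoxc13 promoter, chr15:102751132-102751431: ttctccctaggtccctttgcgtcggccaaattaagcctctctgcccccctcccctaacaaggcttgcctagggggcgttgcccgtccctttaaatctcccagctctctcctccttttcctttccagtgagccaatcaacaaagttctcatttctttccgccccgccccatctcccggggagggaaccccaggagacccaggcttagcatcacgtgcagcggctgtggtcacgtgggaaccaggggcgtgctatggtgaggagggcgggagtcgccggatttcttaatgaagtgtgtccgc

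The Hoxc13 window ends before the TSS of that gene and is 59.0% G and C. Hoxa7, a central gene, had 0.631 CPM (D0), 0.695 (D3), 1.31 (D6T-), then 0.681 (D9T-), 0.908 (D12S+), 1.28 (D16S+) and 0.527 (iPSCs), with 0.643 in D6_siH3.3 and 0.826 in D6_siNT. Hoxc6, of the thoracic region, had at its promoter region (chr15:102829090-102830767) 0.347 CPM (D0), the lowest level called there, 1.65 (D3), 1.78 (D6T-), then 0.833 (D9T-), 1.19 (D12S+), 1.42 (D16S+) and 0.602 (iPSCs), with 0.750 in D6_siH3.3 and 0.872 in D6_siNT. Both were at their highest at D6T-. In D0 and D6_siH3.3 the highest level within Hoxc6 lay in an intron (0.631 and 0.911 CPM).

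Hoxb2, Hoxb5, Hoxc11, Hoxc12, Hoxd4 and Hoxd10 had a promoter region in no library, like 25.2% of all genes. Hoxd4, an anterior gene with a role in the vertebrae, had 1 weak region at D3 (0.331 CPM, the lowest level called there). Hoxb5 had a region in iPSCs and in no other library (0.677 CPM). Hoxb2 had regions within the gene, not the same one in each library, with the highest at D3 (0.430 CPM), D6T- (0.561 CPM), D16S+ (0.661 CPM) and in iPSCs (0.790 CPM). Hoxc12 had 0.562 CPM (D3) and 0.451 CPM in iPSCs, and no call elsewhere. Hoxc11 had regions in an exon or an intron in 5 libraries, with the highest at 0.463 CPM (D3), 0.795 CPM (D6T-), 0.568 CPM (D12S+), 0.661 CPM (D16S+) and 0.489 CPM (iPSCs). Hoxd10, which patterns the limb, had its open region within the gene, with the summit 634 bp past the TSS. That region was called in all libraries other than D9T-, and was the highest of the Hoxd genes at D0 (0.820 CPM) and in iPSCs (0.677 CPM). Between these it had 0.761 CPM (D3), 1.54 (D6T-), 0.738 (D12S+) and 0.850 (D16S+), and 0.696 and 0.780 CPM in D6_siH3.3 and D6_siNT.

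The highest level of the gene over the 9 libraries was found at D6T- for 22 of the 39 genes, at D16S+ for 7, in iPSCs for 4, at D3 for 3 and at D12S+ for 3. For 0 genes it was found at D0, D9T- or with siRNA. The same count was not made over all protein-coding genes, so 22 of 39 is not read as a trait of the Hox genes. D6T- was also the library with the highest level at the 12307 regions of the genome called in all 9 libraries (median 3.41 CPM, against 0.883 CPM at D0). The part of this in the count of Hox genes was not tested. The 4 genes with the highest level in iPSCs were Hoxa2, Hoxb2, Hoxb5 and Hoxb6. D6T- and D6_siNT carry the same day and sort in their labels and had 21390800 and 21784047 tags, yet 93 and 28 Hox regions.

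Over the 9 libraries the clusters held 132 separate regions, 38 in Hoxa, 34 in Hoxb, 35 in Hoxc and 25 in Hoxd. Of these, 71 (53.8%) touched a Hox promoter, 54 had their midpoint in a Hox exon, 42 in an intron alone and 36 between Hox genes. Only 5 regions (3.79%) were called in all 9 libraries, including those at Hoxa7, Hoxa10, Hoxc6 and Hoxc13, against 5.86% of all regions. Without D9T- the count was 12 (9.09%), against 6.39% of all regions. A further 49 (37.1%) were called in 1 library alone, 17 of them at D6T-, 15 at D3 and 11 in iPSCs, against 46.5% of all regions.

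At D3, 67 of the 94 Hox regions had no counterpart at D0, and 4 regions of D0 had none at D3. Over regions joined across all libraries, 31.0% of the Hox regions of D3 were shared with D0, against 47.5% of all regions, and 87.1% of those of D0 with D3, against 62.8%. In the 27 found in both, the level at D3 was higher in 20 and lower in 7, with a median ratio of 1.33, and the median ratio over all regions shared by these libraries was 1.32. The summit levels of the shared Hox regions thus rose like those of the genome. Over all Hox regions called in each library (32 at D0 and 94 at D3), the median width was 266 bp at D0 and 374 bp at D3. It was 323 and 334 bp over all regions of the genome. From D0 to iPSCs, 15 regions were shared, 54 were called in iPSCs alone and 17 at D0 alone. Joined across all libraries, 61.3% of the Hox regions of D0 were shared with iPSCs, against 27.6% of all regions, and 30.2% of those of iPSCs with D0, against 37.3%. The shared regions had a median ratio of 1.08, and 1.19 over all regions, and in 0 of the 15 were the Poisson intervals of the levels apart.

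With a 2-fold rule on CPM, where a library without a call was set to its lowest callable level, 8 of 86 Hox regions (9.30%) were higher in iPSCs than at D0, and 9.61% of all regions were. None (0%) was at least 2-fold lower, while 10.1% of all regions were. The count of higher regions is near the background. All 8 were called in iPSCs and not at D0, and 5 of them lay in Hoxb. The rule could reach few Hox regions, since a fall needed at least 0.752 CPM (D0), which 4 of 32 regions had, and a rise 0.694 CPM in iPSCs, which 12 of 69 had. Scaled by the median of the 12307 regions called in all libraries in place of total tags, 3 were higher and 4 lower (5.57% and 16.7% of all regions), and with 1.5-fold 32 were higher and 5 lower (25.9% and 22.3% of all regions).

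**Figure D4:**
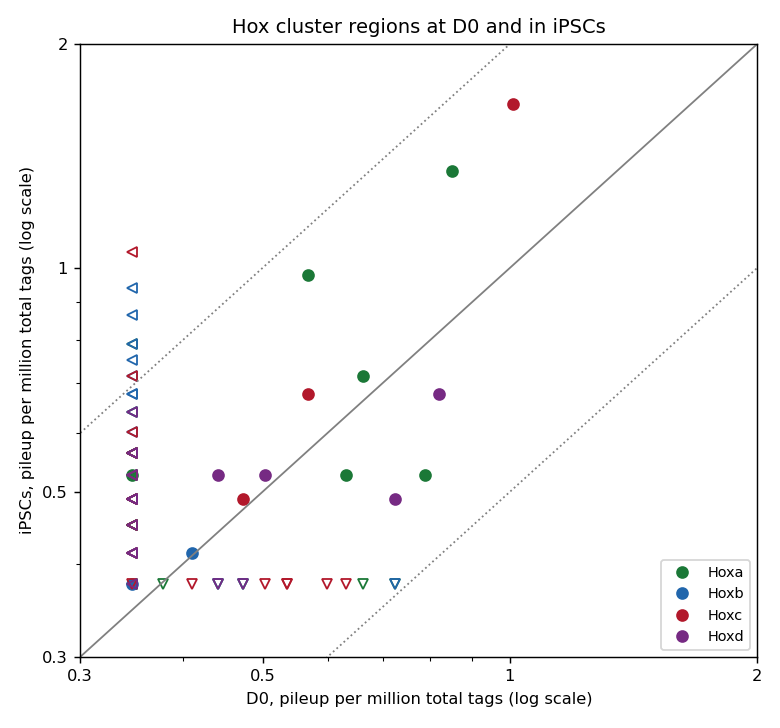
Highest summit pileup in CPM of each Hox cluster region at D0 (x axis) and in iPSCs (y axis), both on log scales, coloured by cluster. Filled circles were called in both libraries, open triangles in 1 of them with the other set at its lowest callable level (0.347 (D0), 0.376 (iPSCs)), and dotted lines mark 2-fold. The 8 regions on or past the upper dotted line are all triangles on the D0 floor, and no region lies past the lower line.

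The region with the largest ratio was an exon of Hoxc13 (chr15:102751906-102752705), with 28 tags (1.05 CPM) in iPSCs and no call at D0, which was at least 3.04-fold higher. With all 9 libraries joined it falls into the wide promoter region of Hoxc13 described above. In Hoxb the largest ratio was at a region between Hox genes, upstream of Hoxb4 (chr11:96172868-96173399). This region had 0.662 CPM (D3), 0.561 (D6T-), 0.738 (D12S+), 0.992 (D16S+) and 0.941 (iPSCs), and no call at D0 or in the other libraries. Hoxb4, a gene of the hindbrain that also expands blood stem cells, was the highest of the Hoxb genes in iPSCs. An exon region of it (chr11:96179660-96180767) had no call at D0, then 0.529 CPM (D3), 0.374 (D6T-), then 0.681 (D9T-), 0.568 (D12S+), 0.897 (D16S+) and 0.865 (iPSCs), with no call in either siRNA library. Its promoter had a separate weak region at D0 (0.347 CPM) and in iPSCs (0.376 CPM), the lowest levels called there. In Hoxa the largest ratio was at the promoter of Hoxa4, with no call at D0 or D9T-, 0.695 CPM (D3), 1.12 (D6T-), 1.31 (D12S+), 0.897 (D16S+) and 0.790 (iPSCs), at least 2.28-fold above D0, and 0.643 and 0.551 CPM in D6_siH3.3 and D6_siNT. In Hoxd it was the promoter of Hoxd1, with 0.662 CPM (D3), 0.841 (D6T-), 0.661 (D16S+) and 0.640 (iPSCs), and no call at D0 or in the other libraries, at least 1.84-fold above D0.

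The region with the largest ratio in the other direction is given for each cluster. A region upstream of Hoxb9 (chr11:96121505-96122059), within Gm53, had 0.725 CPM (D0), 1.22 (D3) and 2.20 at D6T-. It also had 0.589 CPM in D6_siH3.3 and 0.597 CPM in D6_siNT, and was not called at D9T-, D12S+, D16S+ or in iPSCs, at least 1.93-fold lower. It was thus open in all 5 libraries up to day 6 and in none after. Hoxb9 itself, the highest of the Hoxb genes at D0, had 0.473 CPM there, 1.29 (D3), 1.73 (D6T-), 0.681 (D12S+), 0.850 (D16S+) and 0.414 (iPSCs), with no call at D9T- and 0.429 and 0.872 CPM in D6_siH3.3 and D6_siNT. In an intron of Hoxc6, a region (chr15:102835836-102836434) had 0.631 CPM (D0), 0.595 (D3), 0.982 (D6T-), 0.454 (D12S+) and 0.911 in D6_siH3.3, and no call in D6_siNT, at D9T-, at D16S+ or in iPSCs. In an intron of Hoxd3, a region had 0.725 CPM (D0), 0.860 (D3), 1.87 (D6T-), then 1.14 (D9T-), 1.02 (D12S+), 1.23 (D16S+) and 0.489 (iPSCs), which was 1.48-fold lower than at D0, and 0.589 in D6_siH3.3 with no call in D6_siNT. A region shared by the promoters of Hoxa3 and Hoxa6 had 0.725 CPM (D0), 0.662 (D3), 1.40 (D6T-), 0.625 (D12S+) and 0.472 at D16S+. It had 0.696 CPM in D6_siH3.3 and no call in D6_siNT, at D9T- or in iPSCs, at least 1.93-fold below D0.

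The 300 bases about the summits of some of these regions (mm9, + strand) are shown. Windows lower in iPSCs come first, without that of the Hoxa3 and Hoxa6 promoter region, which had no match to any of the 6 motifs. Capitals mark motif matches, which are an AP-1 motif (TGANTCA) and 2 TEAD motifs upstream of Hoxb9, a TEAD motif in Hoxc6, and a CTCF motif and a TEAD motif in Hoxd3.
Upstream of Hoxb9, chr11:96121694-96121993: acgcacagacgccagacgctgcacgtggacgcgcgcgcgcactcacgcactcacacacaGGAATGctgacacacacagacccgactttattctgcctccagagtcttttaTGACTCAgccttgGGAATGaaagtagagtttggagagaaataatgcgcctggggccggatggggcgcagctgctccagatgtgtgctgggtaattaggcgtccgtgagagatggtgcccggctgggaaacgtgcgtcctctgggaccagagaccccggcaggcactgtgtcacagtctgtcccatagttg
Hoxc6 intron, chr15:102835878-102836177: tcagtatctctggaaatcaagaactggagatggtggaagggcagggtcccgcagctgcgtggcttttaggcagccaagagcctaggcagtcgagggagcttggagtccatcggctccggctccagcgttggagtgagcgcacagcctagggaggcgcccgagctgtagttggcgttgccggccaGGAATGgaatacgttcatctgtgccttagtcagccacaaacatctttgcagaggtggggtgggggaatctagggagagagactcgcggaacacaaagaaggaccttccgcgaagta
Hoxd3 intron, chr2:74553893-74554192: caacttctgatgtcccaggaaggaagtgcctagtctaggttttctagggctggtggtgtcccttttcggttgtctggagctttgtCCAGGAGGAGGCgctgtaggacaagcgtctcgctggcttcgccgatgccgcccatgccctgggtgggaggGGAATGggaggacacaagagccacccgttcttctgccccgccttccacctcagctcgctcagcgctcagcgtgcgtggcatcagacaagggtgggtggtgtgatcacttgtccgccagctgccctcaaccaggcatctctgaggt

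The Hoxa4 window, which was higher in iPSCs, had no match to any of the 6 motifs. It was 70.0% G and C, with 34 CpG dinucleotides. Of the other clusters' windows with the largest ratio in this direction, that of the Hoxc13 exon held a TEAD motif. Those of Hoxb and Hoxd had no match.
Hoxa4 promoter, chr6:52141885-52142184: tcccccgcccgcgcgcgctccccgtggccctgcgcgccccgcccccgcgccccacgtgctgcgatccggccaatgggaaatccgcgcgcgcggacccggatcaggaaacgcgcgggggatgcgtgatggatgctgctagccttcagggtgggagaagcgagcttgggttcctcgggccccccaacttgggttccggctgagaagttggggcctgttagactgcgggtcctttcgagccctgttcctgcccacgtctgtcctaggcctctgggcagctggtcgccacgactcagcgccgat

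Sequence was then compared over all Hox regions, in 300 bases about the summit of each (mm9). The median share of G and C was 59.0% in the 132 Hox regions and 49.7% in all 210150 regions. The observed over expected number of CpG dinucleotides had a median of 0.684 in the Hox regions and 0.208 in all regions. CpG-rich DNA is a known feature of Hox clusters. The motifs were searched on both strands: AP-1 (TGANTCA), TEAD (GGAATG), Hox-Pbx (TGATTNAT), octamer (ATTTGCAT, bound by Oct4), CTCF (CCANNAGNNGGC) and the DR5 retinoic acid response element. The AP-1 motif was in 9 of 132 Hox regions (6.82%) and in 28.1% of all regions. TEAD was in 15.2% and 20.6%, Hox-Pbx in 3.79% and 5.46%, CTCF in 7.58% and 5.82%, and octamer in 0.758% and 2.29%. The DR5 element was in 1 Hox region (0.758%) and in 0.152% of all regions. That region lies in an intron of the long form of Hoxa3 and in the promoter of a shorter form, and was called at D3 (0.496 CPM), D6T-, D12S+, D16S+ and in iPSCs (0.489 CPM), but not at D0.

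Of the Hox regions, 10 were called at D0 and neither at D16S+ nor in iPSCs, and 44 were called in iPSCs and not at D0. Of the 10, 5 held an AP-1 motif, against 40.9% of all regions with this pattern. They included the region upstream of Hoxb9 and regions in introns of Hoxc6 (chr15:102832521-102832986), Hoxc13 and Hoxa3. Of the 44, 1 held it (2.27%), against 9.16% of all regions with that pattern. The motif was thus more frequent in the early than in the late regions, in the Hox clusters as in the genome. The CTCF motif was in 2 of the 10 and in 0 of the 44, against 3.10% and 7.97% of all regions with these patterns. The midpoint of 23 of the 44 was in a Hox exon, and that of 0 of the 10, against 54 of the 132 Hox regions. The exon share was not computed for all regions with these patterns, so this is not read as particular to the Hox clusters. Of all regions, 25.2% had the first pattern and 17% the second, against 7.58% and 33.3% of the Hox regions.

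**Figure D5:**
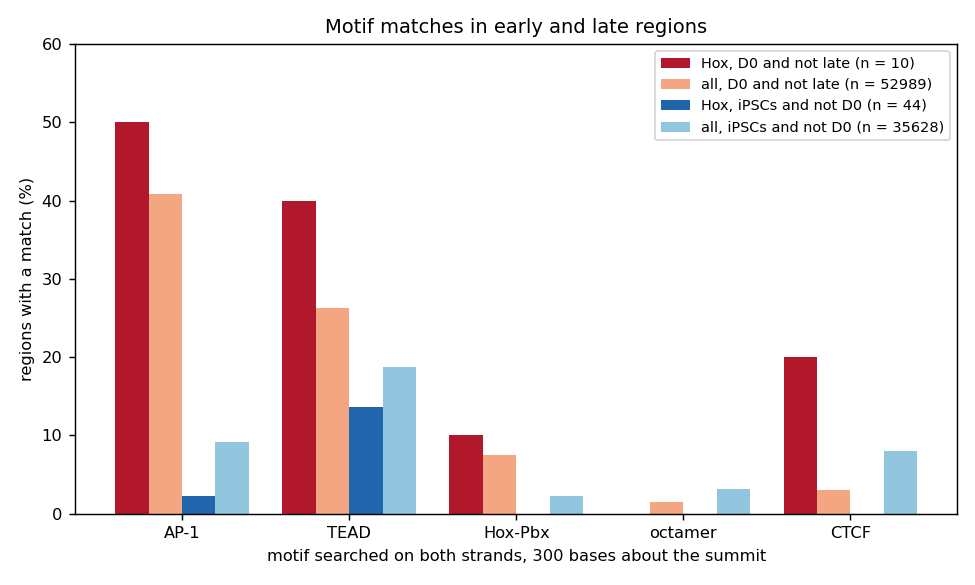
Share of regions (%) with a motif match in 300 bases about the summit, for Hox regions (dark) and all regions (light) called at D0 and neither at D16S+ nor in iPSCs (red) or in iPSCs and not at D0 (blue). AP-1 matches are found in 5 of 10 early and 1 of 44 late Hox regions, and no bar carries an error because each is a count over regions.

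Among the late regions, 13 were called in iPSCs and at none of D0, D3 and D6T-. Of these, 7 were in Hoxb, 5 in Hoxa and 1 in Hoxd. Their levels in iPSCs ran from 0.414 CPM (Hoxb2) to 0.790 CPM (Hoxb2), on both sides of the median of all regions there (0.602 CPM). Of these regions, 2 were also called at D16S+, in exons of Hoxb3 (0.803 CPM there, 0.715 (iPSCs)) and Hoxa3 (0.850 and 0.564 CPM).

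The clusters also hold 6 microRNA genes, and windows of 1 kb on either side of each were examined. Mir615, within Hoxc5, had a region in 8 libraries, from 0.473 CPM (D0) to 1.40 CPM (D6T-), and none at D9T-. Mir196b, within the annotated span of Hoxa9, had one at D3 (0.827 CPM), D6T- (0.561 CPM), D12S+ (0.511 CPM) and D16S+ (0.992 CPM). Mir196a-1, Mir196a-2, Mir10a and Mir10b had one in no library. The mature sequences (RefSeq, GRCm38.p6) are shown with the seed in capitals, because miR-196a-5p and miR-196b-5p share one, as do miR-10a-5p and miR-10b-5p.
miR-196b-5p: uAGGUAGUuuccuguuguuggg
miR-196a-5p: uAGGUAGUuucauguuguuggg
miR-10a-5p: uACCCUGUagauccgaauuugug
miR-10b-5p: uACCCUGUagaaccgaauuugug
miR-615-3p: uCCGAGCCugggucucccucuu

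In the H3.3 knockdown, the Hox clusters were covered over 7.49 kb, and with non-targeting siRNA over 9.92 kb, which is 1.97-fold and 2.59-fold over the genome. Of 36 Hox regions in this pair, 16 were shared, 12 were called in D6_siNT alone and 8 in D6_siH3.3 alone. Joined across all libraries, 63.0% of the Hox regions of D6_siNT and 70.8% of those of D6_siH3.3 were shared, against 77.8% and 76.3% of all regions. In the shared regions the level after H3.3 knockdown was lower in 14 and higher in 2, with a median ratio of 0.875, against 1.06 over all shared regions, and in 0 of the 16 were the Poisson intervals apart. By the 2-fold rule 1 was higher (2.78%, and 2.20% of all regions) and 1 was lower (2.78%, and 0.889% of all regions). The higher one was the Hoxc6 intron region named above, with 17 tags (interval 9.90 to 27.2) in D6_siH3.3 and no call in D6_siNT, at least 2.20-fold. The lower one was the promoter of Hoxb9, with 19 tags (11.4 to 29.7) in D6_siNT and 8 (3.45 to 15.8) in D6_siH3.3, 2.04-fold. The intervals of the Hoxb9 counts overlap. The lower limit of the Hoxc6 count is above the lowest callable pileup of D6_siH3.3 (8 tags), and the level in D6_siNT is not known beyond being below its own (9 tags). By cluster, Hoxa stood at 4.02-fold over the genome after knockdown and 3.96-fold in the control, Hoxb at 0.356 and 0.812-fold, Hoxc at 3.37 and 4.37-fold and Hoxd at 0.949 and 2.13-fold. The Hoxb, Hoxd and Hoxc values rest on 2 and 4, 3 and 6, and 11 and 8 regions.

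Most genes that work with the Hox proteins had an open promoter. The TALE cofactors (Pbx, Meis and Pknox), homeodomain proteins that bind DNA together with Hox proteins, had a promoter region for 9 of 9 genes at D0, D3, D6T-, D12S+, D16S+ and in iPSCs, 7 at D9T- and in D6_siH3.3, and 8 in D6_siNT. The Trithorax, Polycomb and demethylase genes that set the state of the clusters, with Ctcf, had one for 8 of 8 in all libraries other than D9T-, D6_siH3.3 and D6_siNT, which had 7 each, without Kdm6b. Of the ParaHox and related genes, close relatives of Hox genes, 1 of 10 (Gsx1) had one at D0, 4 at D3, 2 at D6T-, 3 at D12S+, 7 at D16S+ and 4 in iPSCs. Evx1 and Evx2, the neighbours of Hoxa13 and Hoxd13, had one in no library and at D16S+ alone (0.425 CPM), respectively. Of 6 genes of retinoic acid signalling, which switches Hox genes on in the embryo, 4 had one at D0 and 6 in iPSCs. Those without one at D0 were Aldh1a2 and Cyp26a1, which make and break down retinoic acid, and they had 0.489 and 0.677 CPM in iPSCs.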

How the data were processed

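ATAC-Seq peak files of 9 libraries (1 per condition) were used. The authors mapped 51 bp reads (mm9) and, per the file headers, called peaks with MACS 2.1.0.20151222 without a control or local background, at a q-value cutoff of 0.05, with tags extended to 200 bp. Per the labels, STAR, Picard and MACS2 were used. The deposited pileup is a signal, the tags over a summit, not scaled for depth. The deposited fold enrichment is a ratio to the genome average, and the deposited −log10 q-value ranked regions in the alternatives. Within a library, overlapping peaks were joined into regions, and pileup was given per 1000000 total tags (CPM). Genes, exons and TSSs came from GENCODE vM1 (mm9, counted from 1), and sequences from NCBIM37. Both annotated Hoxa3 entries were joined. Sox1 was not analysed here. Some genes and sequences are not reported here. Python 3.11.15, numpy 2.4.6, pandas 2.3.3, scipy 1.17.1 and matplotlib 3.10.9 were used, and the functions were tested on simulated data.

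Values were given in full for the highest gene of each cluster at D0 and in iPSCs, genes with a promoter region in all libraries or none, and the regions with the largest ratios between D0 and iPSCs. The members and lists were chosen with earlier results of these data known. Alternatives were the same number of strongest regions (36708), the stronger 50%, gene spans as the reference, a shorter promoter (1 kb before to 100 bp after the TSS), the outermost TSS alone, another scale and 1.5-fold. The same lowest level (0.530 CPM) and the counts without D9T- were added after seeing the data.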

Additional observations from a re-analysis of the deposited data

How the results depend on the processing

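Of 88 alternative values, 34 were close to the value in the report (a coverage fold within its 95% binomial interval, which is narrow, or a count within 1.5 times), and the rest are given here. The fold of the Hox clusters over the genome, in the order D0, D3, D6T-, D12S+, D16S+, iPSCs, D6_siH3.3 and D6_siNT, was 1.52, 2.78, 1.70, 1.88, 4.37, 3.10, 1.81 and 2.03 with the same number of strongest regions. With the stronger 50% of the regions it was 1.62, 3.69, 2.43, 1.68, 3.52, 2.92, 0.655 and 1.60, and 0.180 at D9T-. With the same lowest level in every library it was 1.60, 4.28, 3.38, 2.96, 4.34, 3.31, 1.90 and 2.14. Set against the spans of all protein-coding genes it was 1.09, 2.84, 2.18, 1.71, 2.63, 2.82, 1.14 and 1.48, and 0.446 at D9T-. D3 and iPSCs thus stayed above D0 in these settings, while the highest library was D16S+ with the same number of strongest regions and with the same lowest level, and D3 with the stronger 50% and against gene spans.

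The number of Hox genes with a promoter region was 6 at D0, 10 at D3, 8 at D6T-, 10 at D12S+ and 10 in iPSCs with the same number of strongest regions. It was 8 at D0 and 12 in iPSCs with the same lowest level, and 9 in D6_siNT with the outermost TSS alone. Promoter regions lost from D0 to iPSCs were 3 with the same number of strongest regions, 3 with the shorter promoter and 3 with the same lowest level, and those gained were 7 with the same number of strongest regions and 7 with the same lowest level. Hox regions higher in iPSCs than at D0 were 3 with the median scale, 32 with 1.5-fold and 0 among regions called in both libraries, and those lower were 4 with the median scale and 5 with 1.5-fold. Only 15 Hox regions were called in both libraries, and 8.72% of all such regions were higher. After H3.3 knockdown, 5 regions were higher and 2 lower with 1.5-fold, against 15.1% and 7.48% of all regions. No paired analysis was possible because each condition had 1 library.

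With 1 library per condition, depth, sorting and condition cannot be told apart, and a region without a call is known only to lie below the lowest callable level. The lowest callable level differed between libraries, from 0.331 CPM at D3 to 0.530 CPM at D9T-. The annotated spans of Hoxa3 and Hoxd3 overlap those of neighbouring Hox genes, so a region can count for more than 1 gene. PCR reads without molecular identifiers are not independent molecules, so intervals cover counting error only.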

Other observations

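The Hox regions were close to the detection limit but not narrower in every library. Their median pileup was 16.5 tags at D0, 16.0 at D3, 15.0 at D6T-, 14.0 at D16S+ and 14.0 in iPSCs, against 17, 17, 18, 17 and 16 tags over all regions. Their median width was 266 bp at D0 (323 bp over all regions), 374 bp at D3 (334 bp) and 319 bp in iPSCs (359 bp). The highest fold enrichment of a Hox summit was 22.7 at D16S+ and 7.51 at D0.

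Of the 31 Hox regions found at D0 once libraries were merged, 22 touched a Hox promoter, and 35 of 63 did in iPSCs. Of the regions of D12S+, 94.4% overlapped Hox regions of D3 and 94.4% those of D6T-, against 74.4% and 82.8% over all regions. In the other direction, 39.1% of the Hox regions of D3 and 40% of those of D6T- were found at D12S+, against 38.6% and 33.6% of all regions.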
